A study of Mus musculus with 9 samples.

Results

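Extrachromosomal circular DNA (eccDNA), small closed circles of chromosomal sequence found outside the chromosomes, was examined over 10 genes that encode subunits of voltage-gated calcium channels. The genes were Cacna1a, Cacna1c, Cacna1d, Cacna1e, Cacna1g, Cacna1h, Cacna2d1, Cacna2d3, Cacnb2 and Cacnb4. Every circle that the deposited table assigned to 1 of these genes was taken, which gave 241 distinct pairs of circle and gene, each from a different circle, out of 68857 such pairs over all protein-coding genes (0.35%). They made up 0.161% of the 149584 distinct circles of the table.

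The circles came from hearts of wild-type C57BL/6J mice taken on day 18 of embryonic life (E18), 3 days after birth (3d) or when 8 weeks old (8w), with 3 libraries per stage labelled as biological replicates. No treatment, transgene or mutation distinguishes the groups, and age is what differs between them. Heart is the labelled tissue, and the labelled cell type is embryonic, neonatal or adult cardiocytes. Circles carry no record of expression, so the cell type could not be checked against marker genes, and the sources used here do not give the sex, the number of animals behind a library or how cells were collected. Each library pools all cells of its sample, so fewer cells carrying a circle and fewer circles per cell cannot be told apart.

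Voltage-gated calcium channels open when the membrane depolarises and let calcium into the cell. A pore-forming alpha1 subunit sets the type of channel (L, P/Q, R or T), and most types also hold an intracellular beta subunit and an extracellular alpha2delta subunit that govern trafficking and gating. In the heart, L-type current triggers contraction through calcium release from the sarcoplasmic reticulum, and T-type current contributes to pacemaking and is prominent in the fetal heart. What was measured here is circular DNA from these genes and not their RNA or protein.

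In each library a circle was counted as present from 1 split read, a read that spans the junction closing the circle. The libraries held between 11377 and 846374 split reads and between 3931 and 42963 circles, with the E18 libraries at 9039 to 35273 circles, the 3d libraries at 26648 to 42963 and the 8w libraries at 3931 to 14721. The share of circles with a single split read ran from 6.21% to 60.5% over the libraries and was highest in 8w replicate 1, followed by 3d replicate 1 at 37.9%. Levels below are given as circles per 10000 circles of the same library, with Wilson 95% intervals that cover counting error only, since phi29 amplification copies a circle many times.

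No circle of up to 100 kb covered the start that the deposited table gives a calcium channel gene. The sequences before 3 of the 13 RefSeq start sites matched to these genes are shown as examples. Each is the run of 250 bases before a start site, from RefSeq on GRCm38.p6, written 5′ to 3′ on the gene's strand, with every CG pair in capitals. For Cacnb2 the run before the distal start is chr2:14604056-14604305 (plus strand). The run before its proximal start, inside the gene, is chr2:14823842-14824091 (plus strand). For Cacna1c the run shown is chr6:119108496-119108745 (minus strand). It lies before the start of this gene with the most CG pairs, which is outside the span that the table gives the gene.
Cacnb2 distal start: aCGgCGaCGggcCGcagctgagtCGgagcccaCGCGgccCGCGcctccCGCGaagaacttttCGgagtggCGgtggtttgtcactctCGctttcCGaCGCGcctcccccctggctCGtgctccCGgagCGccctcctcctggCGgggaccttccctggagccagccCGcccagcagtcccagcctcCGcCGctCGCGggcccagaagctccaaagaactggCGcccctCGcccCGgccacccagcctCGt
Cacnb2 proximal start: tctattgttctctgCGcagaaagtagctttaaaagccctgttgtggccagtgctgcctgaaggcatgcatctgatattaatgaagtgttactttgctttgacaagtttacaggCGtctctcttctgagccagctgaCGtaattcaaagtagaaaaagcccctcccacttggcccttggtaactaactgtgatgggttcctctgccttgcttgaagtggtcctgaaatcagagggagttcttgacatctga
Cacna1c start: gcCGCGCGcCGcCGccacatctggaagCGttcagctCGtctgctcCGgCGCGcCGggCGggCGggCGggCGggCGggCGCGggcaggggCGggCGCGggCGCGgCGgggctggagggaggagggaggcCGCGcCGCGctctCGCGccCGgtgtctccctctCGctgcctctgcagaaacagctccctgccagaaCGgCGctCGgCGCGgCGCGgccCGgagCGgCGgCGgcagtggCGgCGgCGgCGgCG
The distal Cacnb2 sequence had 73.2% G and C with 30 CG pairs, the proximal one had 46% with 3 pairs, and the Cacna1c sequence had 82.8% with 48 pairs. The sequences before the other Cacna1c starts, not printed, were lower. They had 50.4% with 5 pairs at chr6:118757974, inside the table's span, and 51.6% with 2 pairs at chr6:119196409. Over all 32851 promoter sequences of the same length the median was 52.4% and 6 CG pairs, and 92.1% held at least 1 CG, a motif that reads the same on both strands. RefSeq promoter windows were matched for 7 of the 10 genes, with 13 start sites, and none of the 13 windows of 300 bases was touched by a circle of up to 100 kb. The circle nearest to the distal Cacnb2 start began 1034 bp downstream of it, a 112 bp circle at chr2:14605340-14605451 with 16 split reads in 8w replicate 2. The circle nearest to the printed Cacna1c start lay 4367 bp downstream, at chr6:119103788-119104128, with 1 split read in 3d replicate 3.

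The share of a library's circles that came from calcium channel genes overlapped between the stages. They numbered 57, 13 and 15 in the E18 libraries, 51, 38 and 76 in the 3d libraries and 6, 23 and 7 in the 8w libraries. Per 10000 circles of the library this came to 16.2 (95% interval 12.5 to 20.9), 14.4 (8.41 to 24.6) and 14.3 (8.67 to 23.6) at E18. At 3d it came to 15.8 (12.1 to 20.8), 14.3 (10.4 to 19.6) and 17.7 (14.1 to 22.1), and at 8w to 15.3 (6.997 to 33.3), 15.6 (10.4 to 23.4) and 10.5 (5.10 to 21.7). The lowest library was 8w replicate 3, and its interval overlapped those of all others. The stage means were 14.9 ± 1.05 at E18, 15.9 ± 1.72 at 3d and 13.8 ± 2.84 at 8w (SD, n = 3 each).

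**Figure D1:**
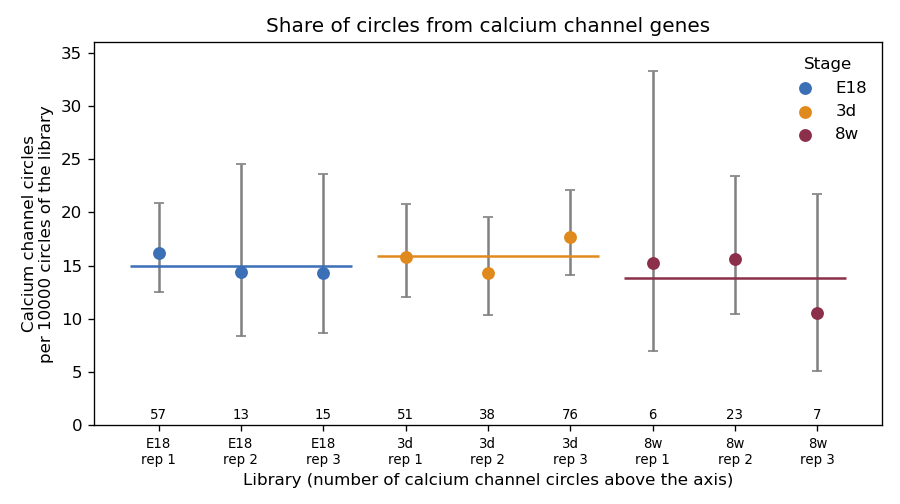
Circles from the 10 calcium channel genes per 10000 circles of each library (points), with Wilson 95% intervals (grey bars), the stage mean (horizontal line) and the number of calcium channel circles above the axis. Points run from 10.5 to 17.7 and the intervals of all libraries overlap.

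The log2 ratio of the stage means was -0.21 for 8w over 3d, -0.11 for 8w over E18 and 0.09 for 3d over E18, each smaller than the spread between libraries. Counted by split reads instead of circles, the family took 15.8 ± 2.65 per 10000 split reads at E18, 14.5 ± 4.84 at 3d and 16.5 ± 5.41 at 8w (SD, n = 3 each), and the order of the stages was then different. Since the genes were picked with results of these data known, no p-value is given for the family as a whole.

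Longer calcium channel genes tended to have more circles. From 3 circles in the 59.5 kb Cacna1h to 68 in the 817 kb Cacna2d3, summed over the 9 libraries, the number of circles broadly followed the gene's span, with exceptions such as Cacnb4, which had 29 circles in 248.5 kb against 18 in the 252 kb of Cacna1a. Per megabase (Mb) of gene the 10 genes had a median of 85.9 circles. This compares with 82.7 over the 8905 genes of the table with a circle and a span of at least 20 kb, with an interquartile range of 56.2 to 115. The 9 genes other than Cacna1g ran from 50.4 to 117 circles per Mb. Cacna1g stood higher with 13 circles in 65.8 kb, or 198 per Mb, and 3.83% of the 8905 genes were denser. This is a small count without an interval, and it includes a circle of 6790494 bp that covered the whole gene and much beyond it.

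**Figure D2:**
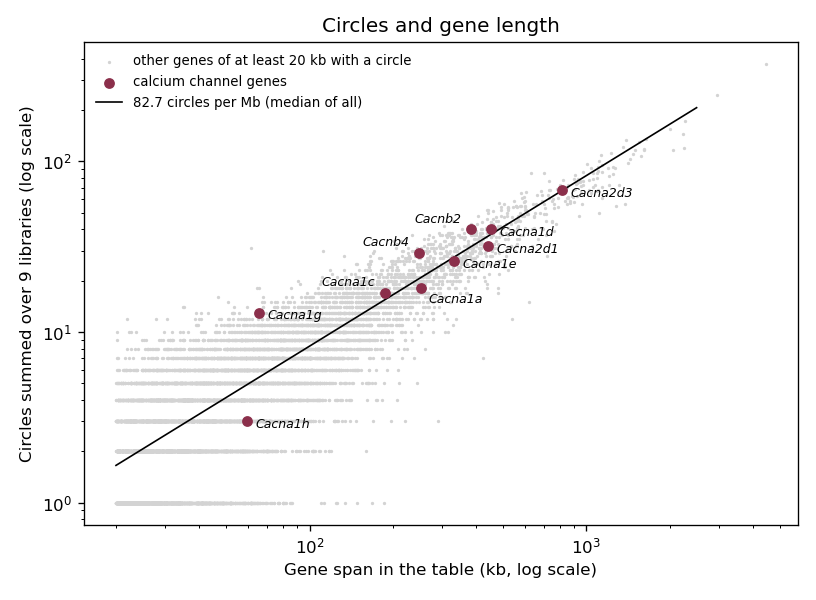
Number of circles summed over the 9 libraries against gene span in kb, both on log scales, for the calcium channel genes (dark points, named) and the other genes of at least 20 kb with a circle (grey). The line marks 82.7 circles per Mb, the median of the 8905 genes, and Cacna1g lies above it at 198 per Mb.

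The table's span for some genes is shorter than the RefSeq one, and this touches the main cardiac pore gene most. On GRCm38.p6 the RefSeq span of Cacna1c is 610 kb, against 188 kb in the deposited table, and the longer span held 45 distinct circles in place of 13. Of the 32 added circles, 4 lay in another gene of the table, and summed over libraries they gave 11 circles in E18 libraries, 25 in 3d ones and 2 in 8w ones. Cacna1e went to 31 circles in place of 21 (494 kb in place of 333 kb) and Cacna1a to 19 in place of 16 (302 kb in place of 252 kb). The other 7 genes gained none, and the density of Cacna1c was 90.1 circles per Mb on the RefSeq span and 90.4 on the table's.

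Each gene was tested for a change in its number of circles between stages in 1 fit over all 2174 genes with at least 10 circles in the 9 libraries, by the quasi-likelihood test of edgeR with Benjamini-Hochberg adjustment over all genes tested. The test called 0 of the 2174 genes (0%) for 8w over 3d, 0 (0%) for 8w over E18 and 0 (0%) for 3d over E18. At an unadjusted p under 0.05 there were 282, 185 and 105 genes in the same order, and DESeq2 likewise called 0, with 82, 54 and 15 genes at that level. Of the calcium channel genes 9 were tested, since Cacna1h had 3 circles, and 0 of the 9 passed in any comparison, with adjusted p from 0.336 to 0.988 when 8w was set against 3d. The lowest adjusted p of a calcium channel gene was 0.637 against E18, and for 3d over E18 it was 0.984.

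The median of all 2174 genes lay at a log2 change of -0.84 for 8w over 3d, -0.62 for 8w over E18 and 0.27 for 3d over E18 with TMM scaling, and at -0.26, -0.19 and 0.10 with library totals alone. Changes of single genes are therefore given as the log2 change of the fit, which the test sets against 0, and as its distance from that median, which was not tested. For 8w over 3d, 5 of the 8 tested calcium channel genes with circles at both stages lay above it and 3 below, with a median of 0.31. For 8w over E18 it was 6 above and 2 below, with a median of 0.26, and for 3d over E18 5 above and 4 below of 9 genes, with a median of 0.08. The median of all 2174 genes was taken without the limit to genes with circles at both stages. With Cacna1g counted, 5 of 9 lay above and 4 below for 8w over 3d (median 0.27). For 8w over E18 it was then 6 above and 3 below (median 0.12). The values below describe these libraries.

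**Figure D3:**
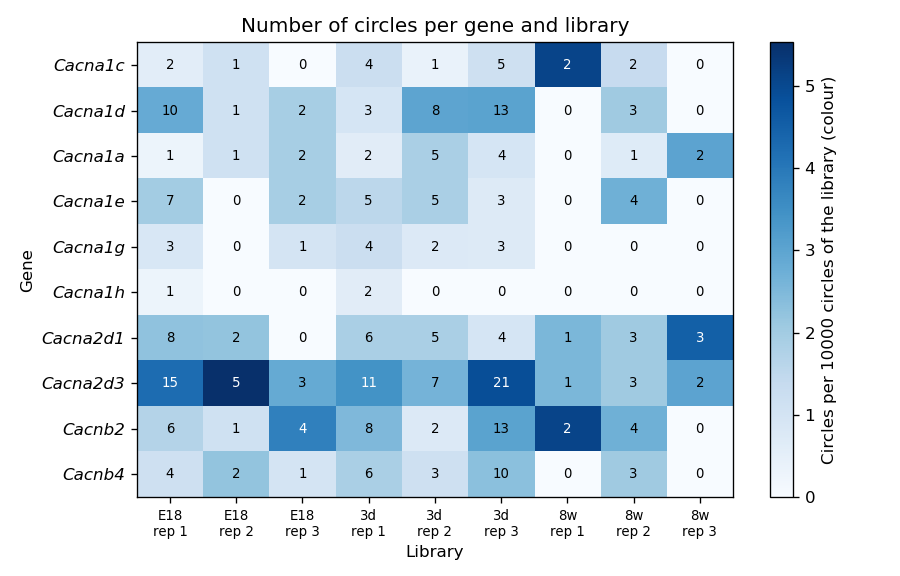
Number of circles of each calcium channel gene in each library (figures in the cells), with colour giving circles per 10000 circles of the library. Cacna1g and Cacna1h show 0 in the 3 adult libraries, and Cacna2d3 has at least 1 circle in all 9 libraries.

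Of the L-type pore genes, Cacna1c (ENSMUSG00000051331, chr6:118592319-118780324, minus strand) encodes the pore of the main L-type channel of working heart muscle. It had 2, 1 and 0 circles in the E18 libraries, 4, 1 and 5 in the 3d libraries and 2, 2 and 0 in the 8w libraries. Per 10000 circles the means were 0.558 ± 0.553 at E18, 0.927 ± 0.480 at 3d and 2.15 ± 2.63 at 8w (SD, n = 3 each), and the stages overlapped, with a 0 at both E18 and 8w. The log2 change for 8w over 3d was 0.02 (SE 0.91, edgeR adjusted p = 0.988), which is 0.86 above the median gene. On the RefSeq span, with the added circles, the means per 10000 circles were 2.15 ± 1.86 at E18, 3.48 ± 0.252 at 3d and 2.60 ± 2.55 at 8w (SD, n = 3 each), so the order of 8w and 3d turned with the span used. The circle with the most reads, 641 bp at chr6:118743909-118744549, had 84 split reads in 3d replicate 3 and 1 in E18 replicate 2.

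Cacna1d (ENSMUSG00000015968, chr14:30039949-30491156, minus strand) encodes the L-type pore that supports pacemaking in the sinoatrial node. It had 10, 1 and 2 circles at E18, 3, 8 and 13 at 3d and 0, 3 and 0 at 8w. The means per 10000 circles were 1.95 ± 0.865 at E18, 2.32 ± 1.202 at 3d and 0.679 ± 1.18 at 8w (SD, n = 3 each), and all adult circles came from 8w replicate 2, whose level lay inside the range of both earlier stages. For 8w over 3d the log2 change was -1.59 (SE 0.82, edgeR adjusted p = 0.353), or -0.74 relative to the median gene. The 604 bp circle at chr14:30292393-30292996 carried 111 split reads in E18 replicate 1, the second highest number among all calcium channel circles.

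Genes of the neuronal high-voltage channels also gave circles at all 3 stages. Cacna1a (ENSMUSG00000034656, chr8:84388440-84640246, plus strand), the P/Q-type pore of synapses, had 1, 1 and 2 circles at E18, 2, 5 and 4 at 3d and 0, 1 and 2 at 8w. Its density was 71.5 circles per Mb and its log2 change for 8w over 3d was -0.50 (SE 0.96, edgeR adjusted p = 0.825), which is 0.34 above the median gene. Both circles of 8w replicate 3 were nested, 79 bp and 77 bp long around the same place at chr8:84578421-84578499, with 8 and 9 split reads.

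Cacna1e (ENSMUSG00000004110, chr1:154392519-154725920, minus strand), the R-type pore, had 7, 0 and 2 circles at E18, 5, 5 and 3 at 3d and 0, 4 and 0 at 8w. Its density was 78.0 per Mb and its log2 change for 8w over 3d was -0.35 (SE 0.87, edgeR adjusted p = 0.880), which is 0.50 above the median gene. The 4 adult circles were all from 8w replicate 2, were 81 to 142 bp long, and lay between 46.6 and 83.4 kb from the gene start in a gene of 333 kb. Together the L-type pair had 57 circles at 89.2 per Mb and the neuronal pair 44 at 75.2 per Mb.

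The T-type genes were without a circle in the adult libraries. Cacna1g (ENSMUSG00000020866, chr11:94408391-94474198, minus strand), a T-type pore of pacemaking and conducting tissue, had 3, 0 and 1 circles at E18, 4, 2 and 3 at 3d and 0 in each 8w library. Cacna1h (ENSMUSG00000024112, chr17:25374285-25433783, minus strand), a T-type pore known from the fetal heart, had 1, 0 and 0 at E18, 2, 0 and 0 at 3d and 0 in each 8w library. The 3 adult libraries summed to 25297 circles, so a count of 0 allows up to 1.19 circles per 10000. This is above the pooled levels of Cacna1g, 0.884 at 3d (9 of 101805 circles) and 0.730 at E18 (4 of 54797), and above those of Cacna1h, 0.196 at 3d and 0.182 at E18. A difference of the adult libraries was therefore not detectable at this depth for either gene. No fold is given for Cacna1g against a stage at 0, and its edgeR adjusted p was 0.336 against 3d and 0.637 against E18.

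Cacna1g also carried the circle closest to the start of any calcium channel gene. It was 393 bp long, at chr11:94473403-94473795, and ended 403 bp downstream of the start, with 12 split reads in E18 replicate 1 and 1 in 3d replicate 1. Cacna1h had a 359 bp circle at chr17:25377947-25378305 with 72 split reads in E18 replicate 1, against 2 and 8 for its other circles.

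The alpha2delta pair had the widest combined span of the 5 subunit groups and the most circles. Cacna2d1 (ENSMUSG00000040118, chr5:15934691-16374511, plus strand), the main alpha2delta subunit of the heart, had 8, 2 and 0 circles at E18, 6, 5 and 4 at 3d and 1, 3 and 3 at 8w. The means per 10000 circles were 1.49 ± 1.29 at E18, 1.56 ± 0.542 at 3d and 3.03 ± 1.31 at 8w (SD, n = 3 each). Each of the 3 adult libraries, at 2.54, 2.04 and 4.51, lay above each 3d library, at 1.86, 1.88 and 0.931, while the E18 libraries, which ran from 0 to 2.268, overlapped both. The value of 8w replicate 1 is a single circle with 1 split read, and with circles of 2 or more split reads that library had 0, so the adult and 3d libraries then overlapped. In the fit across all genes the log2 change for 8w over 3d was 0.23 (SE 0.72, edgeR adjusted p = 0.909), which is 1.08 above the median gene.

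Cacna2d3 (ENSMUSG00000021991, chr14:28904947-29721864, minus strand), an alpha2delta subunit best known from neurons, had the most circles of all 10 genes and was the only 1 of them found in all 9 libraries. It had 15, 5 and 3 circles at E18, 11, 7 and 21 at 3d and 1, 3 and 2 at 8w. Per 10000 circles the libraries held 4.25, 5.53 and 2.86 at E18, 3.42, 2.63 and 4.89 at 3d and 2.54, 2.04 and 3.01 at 8w. The adult values overlapped those of both earlier stages, with means of 4.22 ± 1.34 at E18, 3.64 ± 1.15 at 3d and 2.53 ± 0.486 at 8w (SD, n = 3 each). Its log2 change for 8w over 3d was -1.32 (SE 0.65), or -0.47 relative to the median gene. The edgeR p was 0.0409 unadjusted and 0.337 adjusted. Unadjusted, it was 0.256 in edgeR with library totals alone and 0.092 in DESeq2. Of the 2174 genes, 282 had an unadjusted edgeR p under 0.05 in this comparison, with Cacna1g (0.0292) among them.

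Over the 9 libraries the genes whose level was most like that of Cacna2d3 were D10Bwg1379e (Pearson r = 0.943), Dab2 (0.932) and Tek (0.932), on the log2(circles per 10000 + 1) scale among the 2174 genes tested. These genes had 12, 11 and 11 circles in all, the libraries share their depth, and a correlation in counts this sparse is a description only.

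Of the beta genes, Cacnb2 (ENSMUSG00000057914, chr2:14604306-14987908, plus strand) encodes the main beta subunit of the heart's L-type channel. It had 6, 1 and 4 circles at E18, 8, 2 and 13 at 3d and 2, 4 and 0 at 8w. The means per 10000 circles were 2.21 ± 1.42 at E18, 2.09 ± 1.19 at 3d and 2.60 ± 2.55 at 8w (SD, n = 3 each), and the stages overlapped. On the TMM scale of the fit, its log2 change for 8w over 3d was -0.58 (SE 0.70, edgeR adjusted p = 0.743), which is 0.27 above the median gene. Cacnb2 held the circle with the most split reads of the family, 402 bp at chr2:14975588-14975989 with 140 in E18 replicate 1. It also held the family's only circle found in 3 libraries, 386 bp at chr2:14693879-14694264, with 23 split reads in E18 replicate 1, 1 in 3d replicate 3 and 1 in 8w replicate 1.

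Cacnb4 (ENSMUSG00000017412, chr2:52428320-52676831, minus strand), a beta subunit found mainly in brain, had 4, 2 and 1 circles at E18, 6, 3 and 10 at 3d and 0, 3 and 0 at 8w. The means per 10000 circles were 1.43 ± 0.681 at E18, 1.77 ± 0.606 at 3d and 0.679 ± 1.18 at 8w (SD, n = 3 each), and all adult circles came from 8w replicate 2. Its log2 change for 8w over 3d was -1.26 (SE 0.86, edgeR adjusted p = 0.551), or -0.41 relative to the median gene. The beta pair had 69 circles at 109 per Mb and the alpha2delta pair 100 at 79.6 per Mb.

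Other genes of the channel family and its partners gave no call either. Of 16 other subunit genes, 12 had a circle and 4 were tested (Cacna1b, Cacna1i, Cacna2d4 and Cacng4), and 0 passed in any comparison. The 4 without a circle, Cacnb1, Cacnb3, Cacng1 and Cacng6, span 12.1 to 21.5 kb in RefSeq. Of 20 partners and regulators, 15 had a circle and 4 were tested, and again 0 passed. These 4 were Ryr2 (the calcium release channel of the sarcoplasmic reticulum), Slc8a1 (the sodium-calcium exchanger), Camk2d (a calcium-dependent kinase) and Stac. The 12 other subunit genes had 94 circles summed over libraries, with 25 from E18, 61 from 3d and 8 from 8w libraries, and the 15 partner genes had 115, with 28, 79 and 8 in the same order.

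Within the genes, circles were found along the whole length. Of the 238 circles of up to 100 kb, 237 lay wholly inside the gene. Cut into 4 equal parts from start to end of the table's span, the genes held 76, 48, 58 and 56 circles in these parts, so the first part had 31.9%. On the RefSeq span the first part had 29.0%, and neither share was tested. None of the 238 covered a gene start, which allows a share of up to 1.26%. Over all genes there were 318 of 64866 such pairs that covered a start (0.490%), and in genes of at least 200 kb 11 of 25592 (0.0430%), so a share like the background was not detectable with 238 circles. Exons and introns were not analysed here.

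**Figure D4:**
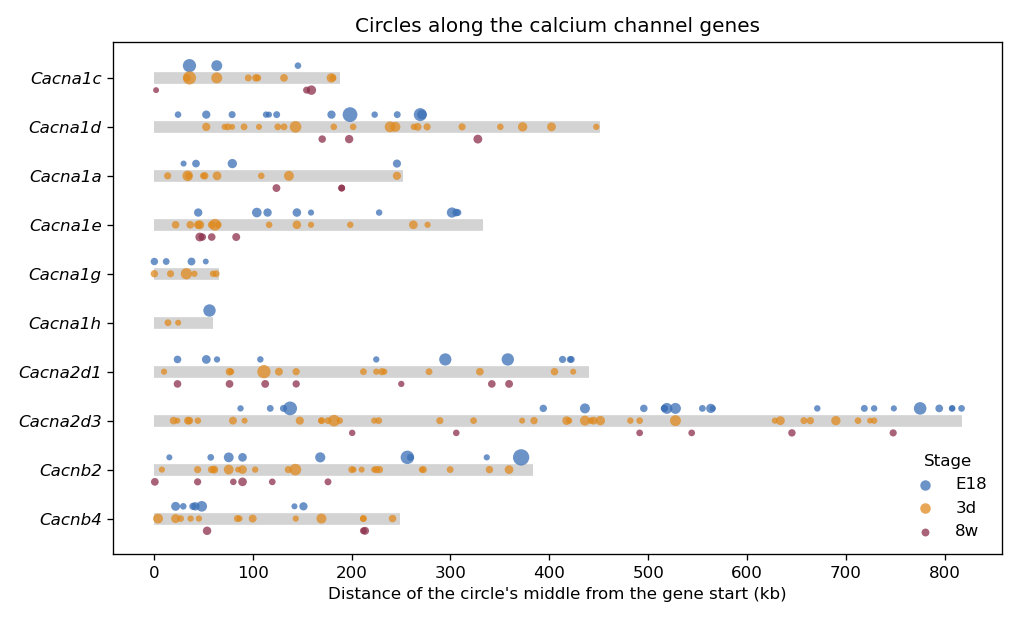
Middle of each circle of up to 100 kb along the 10 genes, in kb from the gene start, with gene span in grey, stage by colour (E18 above, 3d on and 8w below the bar) and point area growing with split reads. Circles are scattered along the genes at E18 and 3d, and Cacna1g and Cacna1h have no 8w point.

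Adult calcium channel circles were shorter than those of the earlier stages. Their median length was 366, 368 and 387 bp in the E18 libraries, 372, 371 and 567.5 bp in the 3d libraries and 233.5, 110 and 98 bp in the 8w libraries. All 3 adult medians lay below the 6 others, a description with no test. The difference of the stage means was -289.7 bp for 8w minus 3d and -226.5 bp for 8w minus E18, where E18 libraries averaged 374 ± 11.6 bp, 3d libraries 437 ± 113 bp and 8w libraries 147 ± 75.01 bp (SD, n = 3 each). For 3d minus E18 it was 63.2 bp, and -2.17 bp without 3d replicate 3, so it rested on that library.

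The libraries as a whole moved the same way. Over all circles, the E18 libraries had medians of 369, 366 and 369 bp, the 3d libraries 378, 368 and 405 bp, and the 8w libraries 331, 135 and 103 bp. Circles under 250 bp made up 16 of 57, 3 of 13 and 2 of 15 calcium channel circles in the E18 libraries (21.4%, 25.3% and 21.8% of all circles there). In the 3d libraries they were 10 of 51, 12 of 38 and 7 of 76 (17.5%, 27.4% and 8.01% of all circles), and in the 8w libraries 3 of 6, 21 of 23 and 7 of 7 (46.0%, 89.2% and 83.4%). The part of depth or library preparation in the shorter lengths was not tested.

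**Figure D5:**
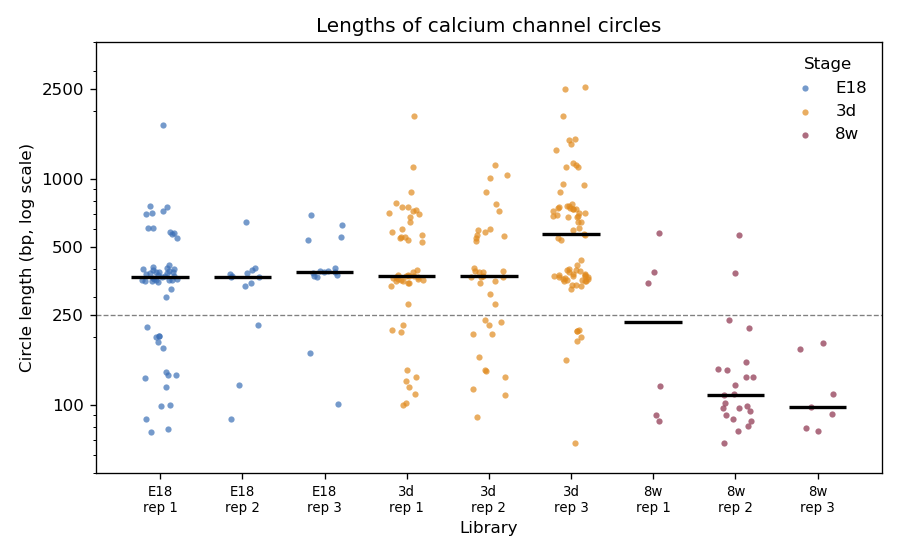
Length in bp (log scale) of every calcium channel circle of up to 100 kb in each library (points, spread sideways for view), with the median over all of the library's calcium channel circles (black bar) and a dashed line at 250 bp. Most points of the E18 and 3d libraries lie above the line, and 31 of the 36 adult points lie below it.

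Over all stages the calcium channel circles had a median length of 372 bp, against 369 bp for all circles. Of the 241, 90 were 330 to 420 bp long (37.3%, against 39.2% of all circles), a range near the length of DNA on a pair of nucleosomes. By stage the distinct circles in this range were 43 of 82 at E18, 51 of 148 at 3d and 3 of 35 at 8w. There were 7 distinct circles over 650 bp among the E18 libraries, 47 among the 3d ones (the 3 of over 100 kb included) and 0 of 35 among the adult ones, which allows a share of up to 8.57%. The 35 distinct adult circles were 68 to 572 bp long, and of the 5 that reached 250 bp, 4 had a single split read in the adult library.

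Aside from 3 very long circles, lengths ran from 68 to 2548 bp, with 15 over 1 kb. The shortest, 68 bp in Cacna2d1 at chr5:16011279-16011346, had 9 split reads in 3d replicate 3 and 7 in 8w replicate 2. The 3 long ones covered a whole gene each, with 9268349 bp over Cacnb4 (3 split reads, 3d replicate 1), 8678694 bp over Cacna1a (7 split reads, 3d replicate 3) and 6790494 bp over Cacna1g (76 split reads, 3d replicate 3). How junctions this wide arose was not tested.

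The same circle was seldom seen more than once. Of the 241 circles, 197 were in a single library (81.7%, against 80.6% of all circles), 43 in a pair of libraries and 1 in 3. Of the 44 shared circles, 23 crossed stages and 21 stayed within a stage, 35 had a single read in some library, and 26 included 3d replicate 1, where 18 of them had 1 read. Only 3 had at least 5 split reads in more than 1 library. They were the 68 bp Cacna2d1 circle, a 592 bp Cacna1d circle at chr14:30347485-30348076 (6 in 3d replicate 2, 55 in 3d replicate 3) and a 120 bp Cacna1e circle at chr1:154581143-154581262 (19 in E18 replicate 1, 5 in 3d replicate 1). By stage, 66 of 82 circles at E18, 126 of 148 at 3d and 26 of 35 at 8w were found at that stage alone.

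Split reads per circle ran from 1 to 140 with a median of 10, the same as over all circles, and came to 4295 in all. The 3 circles with the most reads were the 402 bp Cacnb2 circle, the 604 bp Cacna1d circle and a 581 bp Cacna2d3 circle at chr14:29583694-29584274 with 95, all from E18 replicate 1 alone, the library with the most split reads. Circles that overlapped a different circle of the same gene formed 5 pairs, and in 2 of them, in Cacna1a and Cacna2d3, the pair differed by a few bases within 1 library.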

How the data were processed

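Split-read counts per circle and library, deposited as 1 table, were used, with circles called by Circle-Map per the file headers. The authors deposited other values per line, a length and an overlap with a protein-coding gene, both in bp. Per the labels' protocols, heart samples were digested, treated with alkali and column-purified, amplified with phi29 polymerase, sonicated and built into NEBNext libraries. The submitters' processing notes list BWA 0.7.12, cutadapt 1.9.1, edgeR with the version 0.6.9, bedtools 2.27.1 and SAMtools 1.9, and name mm10 and GRCm38 as builds. The sources used here give no version or filters for Circle-Map. The 9 columns of log2 values normalized by the authors were not used.

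Coordinates count from 1. Circles per gene were tested with edgeR 4.0.16 (TMM, quasi-likelihood, all 9 libraries, stage as the only term, genes with at least 10 circles, adjusted p under 0.05), and with DESeq2 1.42.0 beside it. On simulated counts for 8w over 3d (2174 genes, 200 changed), 42 of 100 genes changed 4-fold and 100 of 100 changed 16-fold were recovered, with 12 false calls. Every simulated gene had the same dispersion, 0.00769, and unchanged genes had means proportional to library totals. The shift of the median gene in the real libraries was not simulated, so these shares do not measure power there. Replicates are labelled biological, but nothing further describes them. The genes, lists and alternatives were chosen with earlier results of these data known. Named are all 10 genes, and circles in 3 libraries, with the most reads, longest or shortest. Circles near gene starts, the top circles of Cacna1c and Cacna1h, the adult Cacna1e circles, overlapping pairs and circles with at least 5 reads in more than 1 library were picked after their values were seen. Same-numbered libraries of different stages did not deviate together, though counts this sparse may not show a pairing. Scripts ran in R 4.3.3 and Python 3.11.15 with matplotlib 3.10.9, pandas 2.3.3, NumPy 2.4.6 and SciPy 1.17.1.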

Additional observations from a re-analysis of the deposited data

How the results depend on the processing

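The edgeR test and its alternatives, 18 for each comparison (circles over 100 kb left out was added after seeing the data, as were the RefSeq span and 2 or more reads for levels of single genes), called 0 genes and 0 calcium channel genes throughout. At an unadjusted p under 0.05 they gave 82 to 465 genes for 8w over 3d, 54 to 263 for 8w over E18 and 15 to 348 for 3d over E18. With the replicate block the counts were 0 called and 173, 94 and 47 at that level. Same-numbered libraries of different stages correlated at -0.034 to 0.0049, and differently numbered ones at -0.020 to 0.042. Counts this sparse may not show a pairing, so none is excluded.

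The log2 ratio of the family's share turned to 0.39 for 8w over 3d, 0.14 for 8w over E18 and -0.24 for 3d over E18 when libraries were thinned to 11377 split reads. By split reads it was 0.19 for 8w over 3d, 0.068 for 8w over E18 and -0.12 for 3d over E18, and with circles of 2 or more split reads -0.00095, 0.107 and 0.108. Leaving out 1 library gave -0.30 to -0.04 for 8w over 3d, -0.21 to 0.05 for 8w over E18 and 0.01 to 0.17 for 3d over E18. The difference of median lengths ran from -332.8 to -224.3 bp for 8w minus 3d, -269.7 to -201.9 for 8w minus E18 and -2.17 to 96.1 for 3d minus E18, and weighted by split reads it was -388 bp for 8w minus 3d. The cause of these shifts was not tested.

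Of the uncalled log2 changes for 8w over 3d, relative to the median gene, split reads per gene turned Cacna1d to 0.070, Cacna2d3 to 0.33 and Cacnb4 to 0.59. Leaving out 1 library gave -0.61 to 1.04 for Cacna1a (negative without 8w replicate 3), -3.41 to 1.01 for Cacna1e (negative without 8w replicate 2, the only adult library with its circles), -0.040 to 0.78 for Cacnb2 (negative without 3d replicate 2) and -3.94 to 0.085 for Cacnb4 (positive without 8w replicate 3). It gave 0.22 to 1.37 for Cacna1c (lowest without 8w replicate 1), 0.70 to 1.58 for Cacna2d1 (highest without 8w replicate 2 and lowest without 3d replicate 3), -0.63 to -0.17 for Cacna2d3 (nearest to 0 without 8w replicate 2) and -4.27 to -0.24 for Cacna1d (lowest without 8w replicate 2, the only adult library with its circles). A fitted value against a stage at 0 is no bound. In all, the direction changed under some alternative for 6 of 8 genes in 8w over 3d, 5 of 8 in 8w over E18 and 7 of 9 in 3d over E18. Densities of the family against all genes were 1.04 times by circles summed, 1.05 by distinct circles and 1.11 on the RefSeq span. Depth limits what an adult count of 0 shows.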
